A study of Mus musculus with 24 samples.

Results

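The Dlk1-Dio3 region is an imprinted stretch of mouse chromosome 12 that carries a large group of miRNAs. It was measured here with all mouse miRNA probes whose name, without a -3p or -5p ending, is among 50 miRNA stems of the region. All 50 stems were found, and they gave 61 of the 566 mouse miRNA probes. Mature miRNAs of mouse colon were counted with the NanoString nCounter system, which counts colour-coded probes bound to single target molecules. The 4 groups were 5 APC tumour and 6 APC normal libraries, and 6 AOM-DSS tumour and 7 AOM-DSS normal libraries, all labelled colon mucosa. APC is the genotype label of a line that the design text names APC;CpC, in which a CDX2 promoter drives Cre recombinase in colon epithelium and removes the tumour suppressor Apc. AOM-DSS mice were given the carcinogen azoxymethane and dextran sulphate sodium, which causes colitis. The normal samples come from the same models and are not from untreated wild-type mice, as far as the labels say. The sources used here give no strain, age, sex, dose or time. The protocols name formalin-fixed tissue and the design text names frozen tissue, which the sources leave unresolved. The labels do not say that samples came from separate animals, so p-values measure the spread between these samples.

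In mammals the miRNAs of this region are expressed from the maternally inherited chromosome, on the same strand as the long noncoding RNAs Meg3, Rian and Mirg, and are thought to be cut from long transcripts that begin at Meg3. The protein-coding genes Dlk1, Rtl1 and Dio3 are expressed from the paternal chromosome. A miRNA binds target mRNAs mainly through its seed, bases 2 to 8. The miRNAs of the region are best known from embryo, placenta, brain and skeletal muscle. Some of those opposite Rtl1, miR-127, miR-136 and miR-434 among them, match the Rtl1 transcript fully and direct its cleavage in mice. In GRCm38.p6 Meg3 starts at chr12:109540996 and the matched miRNAs lie 22.7 to 202.8 kb downstream of that start. They were read in 4 stretches from Meg3 onwards, namely 10 probes on the Meg3 side, 6 probes opposite Rtl1, 3 probes in Rian, and 42 probes of the miR-379 to miR-410 group, which reaches into Mirg. These labels follow the usual order of the region. The annotated span of Rtl1, chr12:109564900-109604418, also covers the Meg3-side probes except those of miR-770. Below, opposite Rtl1 means only the 6 probes of miR-431, miR-433, miR-127, miR-434 and miR-136.

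The mature sequences of the 13 miRNAs whose values carry the results are given 5′ to 3′ from RefSeq (GRCm38.p6, plus strand), with the seed in capitals. RefSeq held a match for 57 of the 61 probes, and miR-376c, miR-485, miR-487b and miR-1193 had none. Most probe names give no arm, and the arm printed is the one that the older name stood for. The first 3 lie opposite Rtl1 and the rest belong to the miR-379 to miR-410 group.
miR-127 (chr12:109592888-109592909): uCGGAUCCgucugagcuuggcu
miR-434-3p (chr12:109594565-109594586): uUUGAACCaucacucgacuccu
miR-136 (chr12:109595331-109595352): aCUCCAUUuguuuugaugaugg
miR-329 (chr12:109713541-109713562): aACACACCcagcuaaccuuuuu
miR-495 (chr12:109718795-109718816): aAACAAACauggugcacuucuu
miR-376b (chr12:109723508-109723528): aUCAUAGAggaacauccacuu
miR-376a (chr12:109723824-109723844): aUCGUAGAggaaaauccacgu
miR-381 (chr12:109726870-109726891): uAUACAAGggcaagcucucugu
miR-382 (chr12:109733781-109733802): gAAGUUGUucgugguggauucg
miR-154 (chr12:109738438-109738459): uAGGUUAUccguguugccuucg
miR-377 (chr12:109740553-109740574): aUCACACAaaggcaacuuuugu
miR-369-3p (chr12:109743466-109743486): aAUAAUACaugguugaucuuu
miR-410 (chr12:109743764-109743784): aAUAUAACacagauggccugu
No seed was shared by any pair of the 57 matched sequences. miR-376a and miR-376b share 18 of 21 bases, so a probe could count some of the other, and their values are uncertain in that respect. The same holds for miR-381 with miR-300 and for miR-495 with miR-543, whose sequences also differ at few bases.

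Because the members are thought to start as transcripts from Meg3, the Meg3 promoter is shown once. The window chr12:109540746-109541045 (GRCm38.p6, plus strand) covers 250 bases before and 50 bases after the start. Searched on both strands, it held TGACGTCA, the palindromic cyclic AMP response element, 57 bases before the start and TATAAA, the TATA box, 25 bases before it, both in capitals. The TATAAA match overlaps a match of the same motif on the other strand, and neither overlaps TGACGTCA. Of 32851 promoter windows of this length, 1.79% held TGACGTCA and 13.6% held TATAAA. A match describes the letters only, since no binding was measured.
Meg3 promoter: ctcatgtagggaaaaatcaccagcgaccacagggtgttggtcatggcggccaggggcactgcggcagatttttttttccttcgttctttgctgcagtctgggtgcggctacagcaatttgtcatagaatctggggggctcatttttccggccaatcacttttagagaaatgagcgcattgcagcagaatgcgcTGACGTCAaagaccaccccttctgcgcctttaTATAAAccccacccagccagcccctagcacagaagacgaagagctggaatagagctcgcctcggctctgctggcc

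Counts were low for most of the members. The 24 libraries held 47235 to 329346 mouse miRNA counts, median 251264, and the 61 probes together made up 0.507% to 1.07% of them. Levels are given as CPM, the probe's share of its library's mouse miRNA counts put on a common total after TMM scaling, a relative level that depends on all other miRNAs. TMM factors ran from 1.02 to 1.61 in APC tumours and 0.689 to 0.908 in APC normal tissue. Before scaling, the members' share of counts was 0.811% ± 0.166 in APC tumours and 0.616% ± 0.083 in APC normal tissue (SD, n = 5 and 6). After scaling, their summed level was 6300 ± 294 and 7659 ± 475 CPM in the same order. The direction of this APC sum thus depends on the scaling. In AOM-DSS tumours and normal tissue the share was 0.822% ± 0.119 and 0.866% ± 0.102 (SD, n = 6 and 7). Background was set in each library at the mean plus 2 SD of 33 viral probes, 23 for mouse cytomegalovirus miRNAs and 10 for those of a mouse gammaherpesvirus. That level was 178, 187 and 251 CPM at the lowest, median and highest APC tumour, and 140.1, 152 and 214 CPM in APC normal tissue. It was 150.4, 174 and 236 CPM in AOM-DSS tumours, and 137, 198 and 234 CPM in AOM-DSS normal tissue. Groups therefore overlapped in background. A total of 32 of the 61 probes were never above background in any library, and 14 were above it in at least 50% of the libraries of a group.

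In both models the median number of members above background was lower in tumours than in normal tissue, with overlapping ranges. Per library, 2, 3 and 5 of the 61 (lowest, median, highest) were above it in APC tumours, against 3, 12 and 14 in APC normal tissue. The corresponding counts were 2, 7 and 12 in AOM-DSS tumours, against 8, 14 and 19 in AOM-DSS normal tissue. Over all mouse miRNA probes the share above background was 29.96% ± 4.48 in APC tumours and 34.9% ± 3.65 in APC normal tissue (SD, n = 5 and 6). It was 32.7% ± 4.05 in AOM-DSS tumours and 33.3% ± 3.19 in AOM-DSS normal tissue (SD, n = 6 and 7). In at least 50% of the libraries, miR-136, miR-329 and miR-409-5p were above background in all 4 groups. miR-376a and miR-376b were so in every group except APC tumours.

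**Figure D1:**
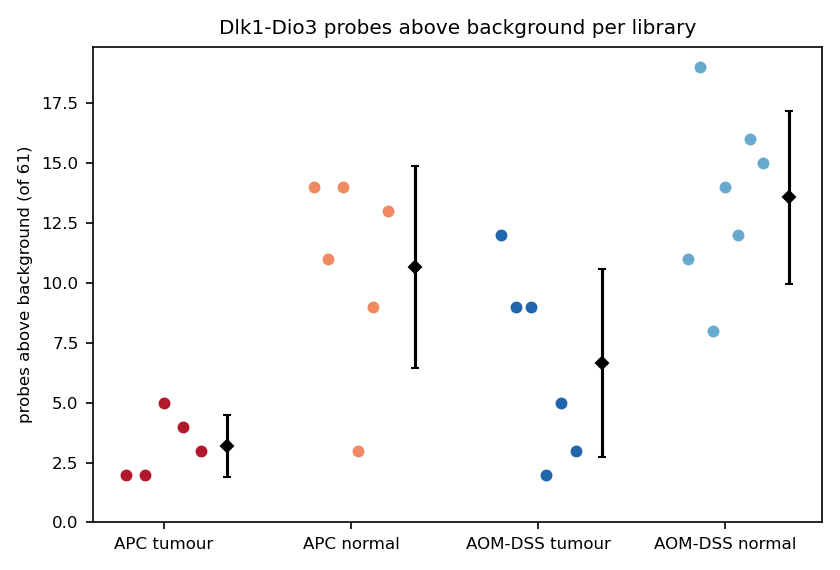
Number of the 61 Dlk1-Dio3 probes above the viral background (y axis) in each library of the 4 groups (x axis). Dots are libraries, and diamonds with bars are the group mean and SD. APC tumours held 2 to 5 such probes and APC normal libraries 3 to 14, while AOM-DSS tumours held 2 to 12 and AOM-DSS normal libraries 8 to 19.

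The tumour comparisons ask how the region's miRNAs differ between tumour and normal tissue in each model. In APC tumours 16 of the 61 probes were lower than in APC normal tissue and 0 were higher, at an adjusted p under 0.05 in edgeR's quasi-likelihood test over 563 miRNAs. In the background of all tested miRNAs, 12.6% were lower and 9.24% were higher in this comparison. In AOM-DSS tumours 14 of the 61 were lower and 0 were higher, against a background of 8.53% lower and 8.53% higher. The 7 AOM-DSS normal libraries and 2 of the AOM-DSS tumours ran on the second NanoString cartridge and the other 4 tumours on the third, per the file header. With cartridge 3 as a term, 4 of the 61 were lower in AOM-DSS tumours (6.56%), against 4.97% of all tested miRNAs. Cartridge 3 held only AOM-DSS tumours, so with this term the tumour effect rests on the 2 AOM-DSS tumours of the second cartridge. A call lost there can come from fewer tumours or from the cartridge, which cannot be told apart. With only the first 2 cartridges, which leaves 2 AOM-DSS tumours, 6 were lower (9.84%), against 5.13%. At an unadjusted p under 0.05, in either direction, 37.7% of the members passed in APC, against 30.6% of all tested miRNAs, and 26.2% in AOM-DSS, against 27.2%. All 61 probes passed the filter on low counts. The members' median log2 fold change was -0.07 in APC and -0.07 in AOM-DSS, against 0.04 and 0.07 over all tested miRNAs. The 45 members not called in APC had log2 fold changes of -0.63 to 0.51, and the 47 not called in AOM-DSS had -0.37 to 0.70. With libraries scaled to the mRNA probes, 16 members were lower in AOM-DSS tumours (26.2%), against 19.7% of all tested miRNAs. The APC count of lower members was 8 with that scaling, against 7.82% of all tested miRNAs. On the authors' scaled values it was also 8, against 7.46%. It was 10 when only miRNAs above background were tested, which left 14 members, against 25% of the 224 miRNAs tested. After background subtraction, which left 29 members to test, 9 were lower in AOM-DSS tumours (31.0%), against 14.3% of the 315 miRNAs tested. In these last 2 settings a member could be kept through normal tissue alone, which favours lower calls. Their counts therefore give no separate support.

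Without a term for cartridge, 13 of the members called in either model were called in both. The 13 probes lower in both models were mmu-miR-127, mmu-miR-136, mmu-miR-154, mmu-miR-369-3p, mmu-miR-376a, mmu-miR-376b, mmu-miR-376c, miR-377, miR-382, miR-410, miR-434-3p, miR-487b and miR-495. They made up 81.2% of the APC list and 92.9% of the AOM-DSS list. Over all miRNAs, 38 were lower in both, which is 53.5% of the APC list and 79.2% of the AOM-DSS list. With cartridge 3 as a term, 4 members were lower in both models, miR-127, miR-136, miR-154 and miR-369-3p, and with only the first 2 cartridges 5 were. miR-379, miR-496 and miR-543 passed the test in APC tumours alone and miR-381 in AOM-DSS tumours alone, but the difference between models was not past the threshold for any of these 4 (adjusted p = 0.228, 0.295, 0.160 and 0.518, edgeR). Of the probes called, 14 of 16 were at background in every APC tumour, and 3 of 14 were at background in every AOM-DSS tumour. There the fitted fold has no firm size, and a bound against background exceeded 1 for only 2 probes in each model.

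**Figure D2:**
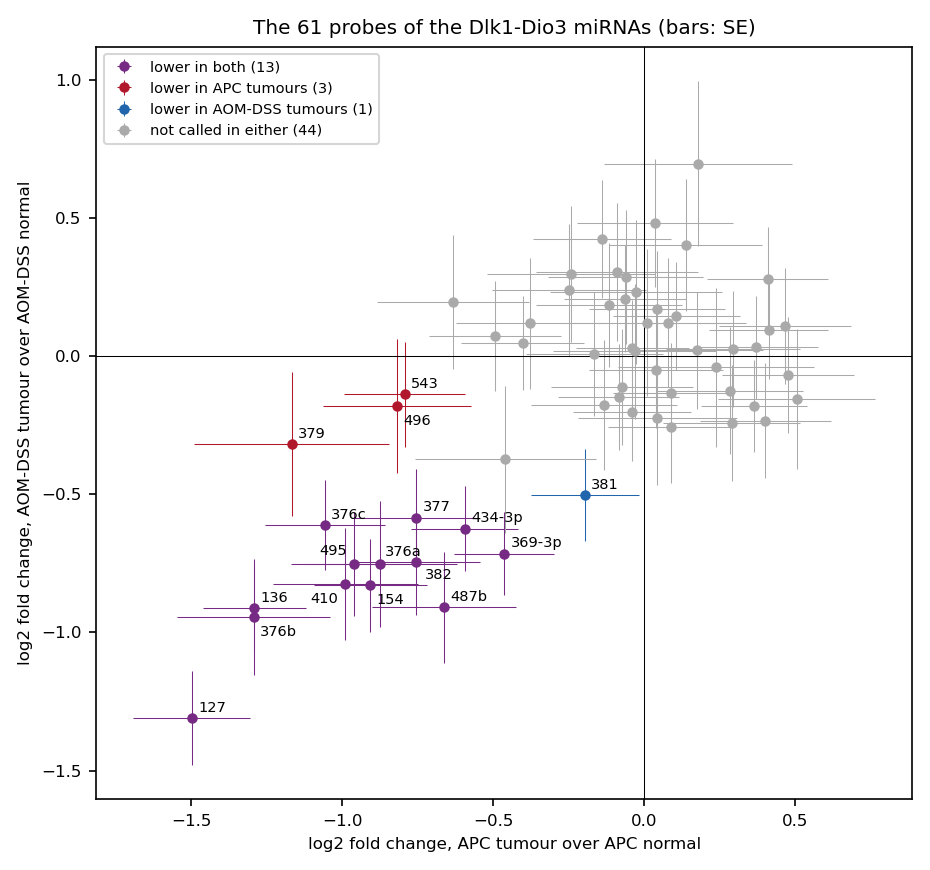
Log2 fold change of the 61 probes in APC tumours over APC normal tissue (x axis) and in AOM-DSS tumours over AOM-DSS normal tissue (y axis), with SE bars; labels are miRNA numbers. The 13 probes lower in both lie at the lower left, with miR-127 at the far end, and the 44 called in neither lie around 0.

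Some muscle and neural miRNAs were also lower in tumours. The summed level of 5 muscle miRNAs (miR-1, miR-133a, miR-133b, miR-143 and miR-145) was 10379 to 24382 CPM in APC tumours, against 172037 to 340302 CPM in APC normal tissue. It was 14987 to 48061 CPM in AOM-DSS tumours, against 146764 to 184665 CPM in AOM-DSS normal tissue, and 4 of the 5 were lower in each model. The sum of 6 neural miRNA probes was 764 to 1179 CPM in APC tumours, against 1282 to 1635 CPM in APC normal tissue, with 2 of 6 lower, miR-137 and miR-129-3p. It was 739 to 938 CPM in AOM-DSS tumours, against 1375 to 1900.4 CPM in AOM-DSS normal tissue, with 4 of 6 lower, miR-9, miR-124, miR-129-3p and miR-137. The groups did not overlap in either sum. Most of the muscle sum came from miR-145 and miR-143, with means of 152184 and 87172 CPM in APC normal tissue. miR-133b was not past the threshold in either model. In APC, neural miR-9 and miR-128 had log2 fold changes of 0.27 and 0.29, short of the threshold. In all APC tumours 3 muscle and 4 neural probes were at background, and in all AOM-DSS tumours 1 muscle and 3 neural probes were. Their part in the lower levels of the region's miRNAs was not tested, and in bulk tissue fewer cells of a type and less RNA per cell cannot be told apart.

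Other marker lists were mixed. Of 6 fibroblast and mesenchyme probes, APC tumours had 2 higher and 0 lower, and AOM-DSS tumours had 1 higher and 2 lower. Their sum was 26535 to 41799 CPM in APC tumours, against 21113 to 36001 CPM in APC normal tissue, and 18141 to 27751 CPM in AOM-DSS tumours, against 29366 to 37114 CPM in AOM-DSS normal tissue. Of 8 epithelial probes, APC tumours had 1 higher and 5 lower, and AOM-DSS tumours had 2 higher and 1 lower. Of 5 leukocyte probes, APC tumours had 1 higher and 1 lower, and AOM-DSS tumours had 1 higher. Of 2 endothelial probes, 1 was higher in APC tumours. No epithelial, leukocyte, endothelial or fibroblast probe was at background in all libraries of a group. The epithelial sum was 66303 to 84226 CPM in APC tumours, against 97453 to 132938 CPM in APC normal tissue. It was 82792 to 105581 CPM in AOM-DSS tumours, against 72991 to 109768 CPM in AOM-DSS normal tissue. Tumour and normal tissue thus did not overlap in the epithelial sum in APC, nor in the fibroblast sum in AOM-DSS. Of 8 probes for imprinted miRNAs of other regions (miR-296, miR-298, miR-335, miR-483 and miR-675), 1 was higher in APC tumours, miR-296-5p, and 0 changed in AOM-DSS tumours.

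Among the miRNAs opposite Rtl1, miR-127, miR-136 and miR-434-3p were lower in both models, 3 of the 6 probes there. Over all tested miRNAs 38 of 563 were lower in both. miR-127 had 69.0, 104, 82.8, 97.7 and 119 CPM in APC tumours, all under background, against 198, 291 and 327 CPM (lowest, median, highest) in APC normal tissue. It had 109.9, 148 and 209 CPM in AOM-DSS tumours, above background in 2 of 6, against 286, 346 and 449 CPM in AOM-DSS normal tissue. Tumour and normal libraries did not overlap in either model. The log2 fold change was -1.50 ± 0.19 (SE) in APC (adjusted p = 6.96e-08, edgeR) and -1.31 ± 0.17 in AOM-DSS (adjusted p = 1.08e-07, edgeR). Against the background of the APC tumours the fall was at least 1.36-fold.

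miR-136 had the highest mean count of the members in normal tissue, although different probes need not count equally well. It stayed above background in all 24 libraries, so its level was measured on both sides, but the size of its change depends on the processing. It had 285, 248, 337, 317 and 357 CPM in APC tumours, against 588, 747 and 991 CPM in APC normal tissue. It had 423, 519 and 672 CPM in AOM-DSS tumours, against 765, 911 and 1206 CPM in AOM-DSS normal tissue. Every tumour was below every normal library of its model. miR-136 fell 2.45-fold in APC tumours (log2 -1.29 ± 0.17, adjusted p = 9.66e-08, edgeR) and 1.88-fold in AOM-DSS tumours (log2 -0.91 ± 0.15, adjusted p = 1.25e-05, edgeR). These levels include background signal. The APC log2 fold change was -1.62 ± 0.19 after background subtraction and -1.03 ± 0.17 on the authors' scaled values.

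miR-434-3p had 143, 104, 88.5, 114 and 127 CPM in APC tumours, against 148, 170.1 and 195 CPM in APC normal tissue. It had 141, 153 and 209 CPM in AOM-DSS tumours, against 183, 255 and 449 CPM in AOM-DSS normal tissue, where the highest library stood apart. The APC groups did not overlap, the AOM-DSS groups did, and tumour values were at background in all but 1 AOM-DSS library. Its log2 fold change was -0.59 ± 0.18 in APC (adjusted p = 0.0113, edgeR) and -0.62 ± 0.15 in AOM-DSS (adjusted p = 0.00268, edgeR). The APC call was lost without APC tumour 3 (adjusted p = 0.0563, edgeR), with scaling to the 100 highest miRNAs (0.123) or the mRNA probes (0.194) and on the authors' scaled values (0.285, limma). The AOM-DSS call was lost with cartridge 3 as a term (0.162) and with only the first 2 cartridges (0.178). The other arm of the hairpin, miR-434-5p, had -0.40 ± 0.20 in APC and 0.05 ± 0.17 in AOM-DSS on the same scale and did not pass in either. miR-431 and miR-433, the remaining probes opposite Rtl1, had log2 fold changes between -0.13 and 0.09 and were not past the threshold.

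In the miR-379 to miR-410 group, 13 of 42 probes were lower in APC tumours and 11 of 42 in AOM-DSS tumours. Over all tested miRNAs the shares were 12.6% and 8.53%. miR-376a and miR-376b are near copies whose precursors are known to be edited from A to I in brain, and both were lower in both models. miR-376a had 41.4, 129, 217, 185 and 217 CPM in APC tumours, against 198, 304 and 371 CPM in APC normal tissue. It had 118, 252 and 283 CPM in AOM-DSS tumours, against 276, 395 and 581 CPM in AOM-DSS normal tissue. Both pairs of groups overlapped, and the lowest APC tumour was the shallowest APC library. Its log2 fold change was -0.87 ± 0.25 in APC (adjusted p = 0.00926, edgeR) and -0.75 ± 0.23 in AOM-DSS (adjusted p = 0.0159, edgeR). The APC call was lost with scaling to the mRNA probes (adjusted p = 0.117, edgeR). The AOM-DSS call was lost without AOM-DSS tumour 4 (0.0557), after background subtraction (0.0773), with cartridge 3 as a term (0.379) and with only the first 2 cartridges (0.329).

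miR-376b had 41.4, 84.7, 80.0, 90.9 and 111 CPM in APC tumours, all at background, against 146, 206 and 273 CPM in APC normal tissue. It had 118, 178 and 249 CPM in AOM-DSS tumours, against 246, 339 and 792 CPM in AOM-DSS normal tissue. The APC groups did not overlap, whereas 1 AOM-DSS tumour was just above the lowest normal library. The log2 fold change was -1.29 ± 0.25 in APC (adjusted p = 0.000130, edgeR), at least 1.03-fold against background, and -0.94 ± 0.21 in AOM-DSS (adjusted p = 0.000881, edgeR). With cartridge 3 as a term the AOM-DSS value was -0.89 ± 0.32 and the call was lost (adjusted p = 0.0629, edgeR).

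miR-154, miR-410 and miR-495 were lower in both models from levels close to background. miR-154 had 101, 94.1, 94.2, 121 and 77.9 CPM in APC tumours, against 108, 184 and 240.4 CPM in APC normal tissue, and 103, 125 and 164 CPM in AOM-DSS tumours, against 168, 241 and 369.5 CPM in AOM-DSS normal tissue. Its AOM-DSS groups did not overlap, while 1 APC normal library lay among the tumours. miR-410 had 50.6, 91.0, 77.1, 50.5 and 127 CPM in APC tumours, against 103, 153 and 284 CPM in APC normal tissue, and 75.8, 148 and 158 CPM in AOM-DSS tumours, against 187, 238 and 248 CPM in AOM-DSS normal tissue. miR-495 had 55.2, 91.0, 80.0, 80.8 and 115 CPM in APC tumours, against 118, 159.6 and 209.9 CPM in APC normal tissue, and 63.8, 119.7 and 168 CPM in AOM-DSS tumours, against 106, 172 and 226 CPM in AOM-DSS normal tissue. For miR-410 the AOM-DSS groups were apart and for miR-495 the APC groups were apart. The log2 fold changes in APC were -0.91 ± 0.19, -0.99 ± 0.24 and -0.96 ± 0.21 for miR-154, miR-410 and miR-495 (adjusted p = 0.000223, 0.00168 and 0.000498, edgeR). In AOM-DSS they were -0.83 ± 0.17, -0.82 ± 0.20 and -0.75 ± 0.19 in the same order (adjusted p = 0.000283, 0.00271 and 0.00292, edgeR). With cartridge 3 as a term the AOM-DSS calls of miR-410 and miR-495 were lost, at -0.54 ± 0.29 and -0.45 ± 0.27 (adjusted p = 0.272 and 0.317, edgeR), as they were with only the first 2 cartridges (0.232 and 0.276) and after background subtraction (0.145 and 0.173). The miR-154 call in APC was lost on the authors' scaled values (adjusted p = 0.0750, limma).

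miR-369-3p, miR-377, miR-381 and miR-382 were each lower in at least 1 model. miR-377 ranged from 55.2 to 125 CPM in APC tumours, against 129 to 205 CPM in APC normal tissue, with a log2 fold change of -0.75 ± 0.20 (adjusted p = 0.00521, edgeR). It ranged from 97.3 to 203 CPM in AOM-DSS tumours, against 183 to 318 CPM in AOM-DSS normal tissue, with -0.58 ± 0.18 (adjusted p = 0.0150, edgeR). miR-382 was at background in every tumour of both models, with log2 fold changes of -0.75 ± 0.21 in APC and -0.75 ± 0.19 in AOM-DSS (adjusted p = 0.00646 and 0.00362, edgeR). miR-369-3p had -0.46 ± 0.17 in APC (adjusted p = 0.0395, edgeR) and -0.72 ± 0.15 in AOM-DSS (adjusted p = 0.000449, edgeR), and tumour and normal libraries overlapped in both models. miR-381 passed in AOM-DSS only, with -0.50 ± 0.17 (adjusted p = 0.0278, edgeR), against -0.20 ± 0.18 in APC (adjusted p = 0.503, edgeR). The miR-369-3p call in APC was lost without any 1 of APC normal 4, 5 or 6, APC tumour 2, 3 or 5, or AOM-DSS normal 5 (adjusted p = 0.0514 to 0.136, edgeR). The miR-381 call was lost without any 1 of AOM-DSS normal 5 or 6 or AOM-DSS tumour 2, 3, 4 or 5 (0.0567 to 0.0977), and the miR-377 call in AOM-DSS without AOM-DSS normal 2 or AOM-DSS tumour 1 or 4 (0.0503 to 0.0655). With cartridge 3 as a term the AOM-DSS calls of miR-377, miR-381 and miR-382 were lost (adjusted p = 0.0827, 0.283 and 0.0540, edgeR). With scaling to the mRNA probes the APC calls of miR-369-3p, miR-377 and miR-382 were lost (0.345, 0.103 and 0.0964). The probes that passed without being above background in 50% of a compared group's libraries were miR-376c, miR-379, miR-487b, miR-496 and miR-543. Their fitted log2 fold changes ran from -1.17 to -0.66 in APC, where all of them passed. In AOM-DSS only miR-487b (-0.91) and miR-376c (-0.61) passed, and the others had -0.32 to -0.14.

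miR-329 and miR-409-5p, also of the miR-379 to miR-410 group, were above background in most libraries and did not pass in either model. miR-329, which in rat neurons is induced by activity together with its neighbours, had 82.8, 245, 383, 384 and 159.9 CPM in APC tumours, against 122, 212 and 317 CPM in APC normal tissue. It had 195, 352 and 516 CPM in AOM-DSS tumours, against 265, 305 and 607 CPM in AOM-DSS normal tissue. The groups overlapped widely in both models. Its log2 fold change was 0.24 ± 0.32 in APC (95% interval -0.40 to 0.87) and -0.04 ± 0.29 in AOM-DSS (-0.61 to 0.53), with adjusted p of 0.676 and 0.960 in edgeR. miR-409-5p, chosen here after its values were seen, had log2 fold changes of -0.03 ± 0.27 and 0.02 ± 0.24. Of 11 hairpins with both arms measured, 2 had a 3p arm lower in both models, miR-369 and miR-434, and 0 had a 5p arm lower in both. Over all tested miRNAs 38 of 563 were lower in both. Counts this small describe no difference between the arms.

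**Figure D3:**
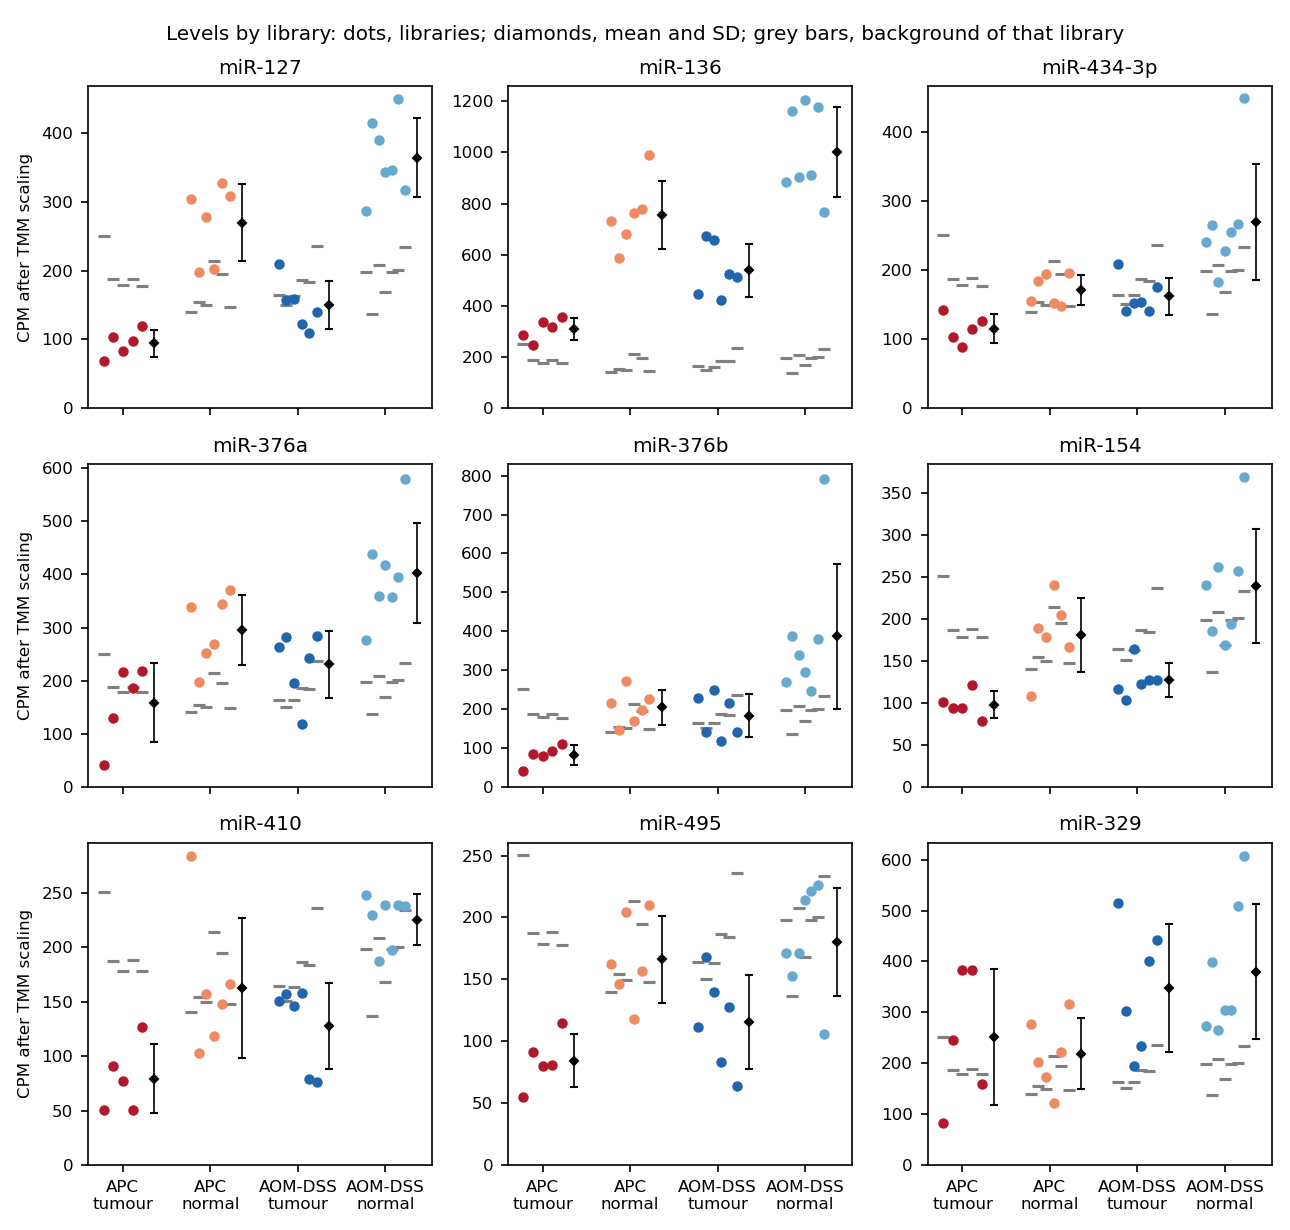
Level in CPM after TMM scaling (y axis) of 9 members in each library of the 4 groups (x axis). Dots are libraries, grey bars are the background of the same library, and diamonds with bars are the group mean and SD. miR-136 lies above background in all 24 libraries and its tumour dots lie below the normal dots in both models, most other members lie near background, and miR-329 overlaps between tumour and normal.

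Place and base composition of the members are given as a description. On the Meg3 side 0 of 10 probes and in Rian 0 of 3 were lower in either model, and none of these 13 probes was above background in 50% of a group's libraries. Over all tested miRNAs 12.6% were lower in APC and 8.53% in AOM-DSS. A count of 0 among so few probes is near these shares and describes no pattern by place. The median log2 fold change opposite Rtl1 was -0.50 in APC and -0.38 in AOM-DSS, and in the miR-379 to miR-410 group it was -0.10 and -0.14. On the Meg3 side it was 0.07 and 0.13, and in Rian -0.03 and 0.21. The 15 sequenced members lower in either model had a median GC content of 42.9% (23.8% to 59.1%), against 54.5% (36.4% to 72.7%) in the 42 sequenced members lower in neither. Whether GC content affects the counts of a probe was not tested.

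**Figure D4:**
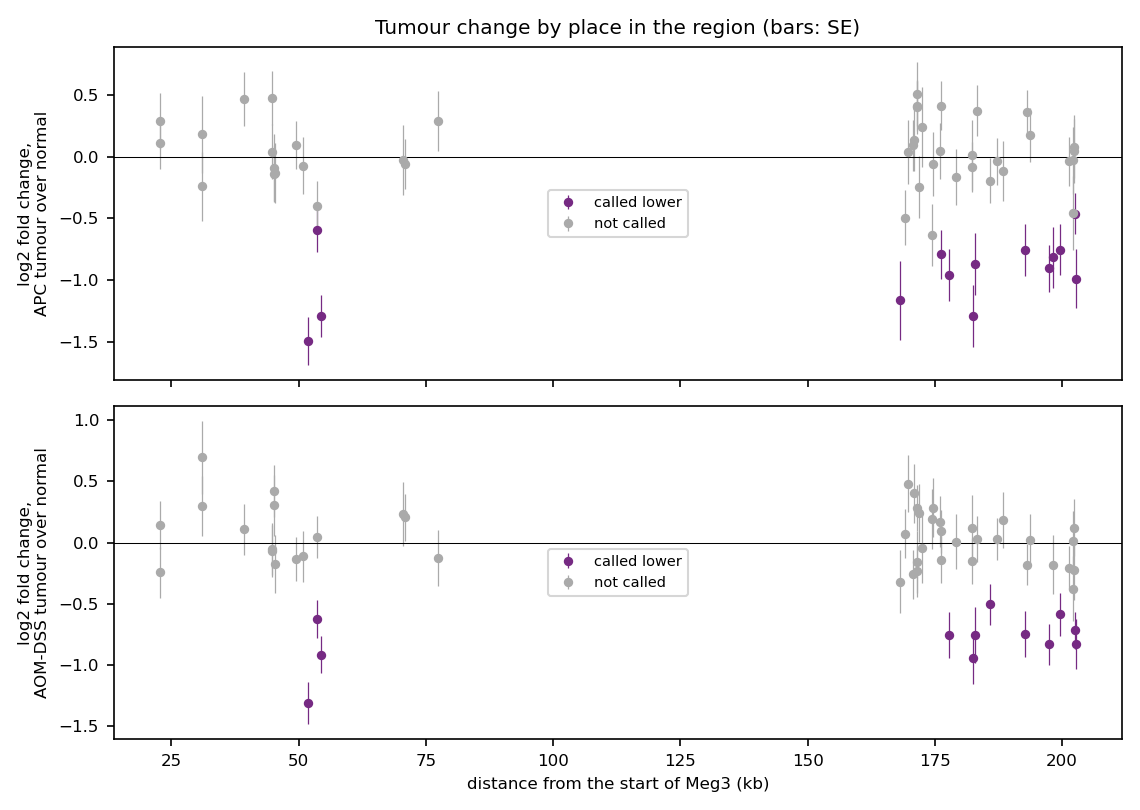
Log2 fold change with SE (y axes) of the 57 probes with a RefSeq match, by distance in kb from the start of Meg3 (x axis), for APC tumour over normal (top) and AOM-DSS tumour over normal (bottom). Probes called lower lie near 50 kb, opposite Rtl1, and from 168 kb in APC or 178 kb in AOM-DSS onwards, with uncalled probes among them.

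The difference between the models' tumour effects was tested as an interaction, AOM-DSS minus APC. edgeR called 0 of the 61 members in either direction, against 6.75% of all tested miRNAs, and DESeq2 also called 0, while 5 of the 61 had an unadjusted p under 0.05 in edgeR, against 21.3% of all tested miRNAs. After background subtraction 4 of the 29 members tested were called, but the share over all miRNAs in that setting is not given here, so this count cannot be compared. For miR-136 the difference was 0.38 ± 0.22 on the log2 scale (95% interval -0.06 to 0.82, adjusted p = 0.345, edgeR). For miR-127 it was 0.19 ± 0.26 (95% interval -0.32 to 0.69, adjusted p = 0.724, edgeR).

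Levels were also set between models within each tissue, although every APC library ran on the first cartridge, which held no AOM-DSS library per the file header, so model and cartridge cannot be told apart. In AOM-DSS normal tissue 3 members were higher than in APC normal tissue and 0 were lower, against a background of 1.6% higher and 1.78% lower. They were miR-434-3p (0.54 ± 0.15), miR-487b (0.68 ± 0.20) and miR-376b (0.77 ± 0.21) on the log2 scale, with adjusted p of 0.0460, 0.0487 and 0.0324 in edgeR. Leaving out any 1 of 15 of the 24 libraries brought this count to 0 or 1. In AOM-DSS tumours 7 members were higher than in APC tumours and 0 were lower, against a background of 4.8% higher and 3.91% lower. miR-136 was above background in every tumour and differed by 0.80 ± 0.17 (adjusted p = 0.00165, edgeR), with no overlap between the tumours of the models. The other 6 were miR-127, miR-376b, miR-376c, miR-377, miR-379 and miR-434-5p, all at background in every APC tumour, so their differences have no firm size. With cartridge 3 as a term, which rests the AOM-DSS side on 2 tumours, 3 members were called between tumours. With libraries scaled to the mRNA probes the direction turned. In AOM-DSS tumours 3 of the 61 members were then lower and 0 higher, against 11.2% of all tested miRNAs lower. The median log2 fold change of all miRNAs was -0.40 with that scaling, against 0.06 with TMM scaling. Restricted to the first 2 cartridges, which leaves 2 AOM-DSS tumours, 0 members were called between tumours. The shares over all miRNAs in both cartridge settings are not given here, so these counts cannot be compared.

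In AOM-DSS tumours, 4 members were called both with cartridge 3 as a term and with only the first 2 cartridges. Both settings rest on the same 2 AOM-DSS tumours, so passing in both is not a separate check. miR-127 changed by -1.03 ± 0.26 with only the first 2 cartridges (adjusted p = 0.00615, edgeR, 2 AOM-DSS tumours) and miR-136 by -0.89 ± 0.25 (adjusted p = 0.0132, edgeR). The others were miR-154 and miR-369-3p, with -1.06 ± 0.26 and -0.93 ± 0.24 (adjusted p = 0.00565 and 0.00736, edgeR).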

How the data were processed

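The authors deposited raw counts per probe for 24 NanoString libraries, and a table of scaled signal, in which each library's raw counts are multiplied by 1 factor of unstated basis. The sources used here name no software. The headers of the raw table name each column's group and its cartridge and lane; 6 columns matched a sample by name, and library numbers of the others come from whole counts recovered from the scaled table (100% of 14376 values whole within 0.01). Columns of other series numbered 0.

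The count model was edgeR 4.0.16 under R 4.3.3. filterByExpr (min.count 10, min.total.count 15) kept 563 miRNAs, TMM scaled the libraries, and 1 robust quasi-likelihood model over the 4 groups was fitted. The SE is the absolute log2 fold change over the square root of F. Benjamini-Hochberg adjustment ran over all tested miRNAs, with a threshold of 0.05. A bound ("at least") compares the mean log2 CPM of normal tissue with that of tumours raised to their background. Members and lists were chosen with earlier results of these data known. Values are given for members past the threshold and above background in 50% of a compared group's libraries, the 5 of highest level in normal tissue, and miR-127 and miR-136. DESeq2 1.42.0, limma 3.58.1 on counts and on log2 of the authors' scaled values plus 1, other scalings and filters, cartridge terms and left-out libraries were the alternatives; leaving out both shallowest libraries was added after seeing the data. The labels do not say whether equal replicate numbers mark the same animal. Deviations from the group means correlated at -0.32 to 0.12 between same-numbered tumour and normal libraries. Low correlations are possible within an animal, so these values cannot settle the pairing.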

Additional observations from a re-analysis of the deposited data

Results flagged for a closer look

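In 4 of 52 tested sets of libraries (13 named members in 4 groups), 1 library stood apart from the rest of its group by Dixon's criterion, which chance meets in about 1 of 20 groups. miR-376b had 792 CPM in AOM-DSS normal library 7, against 387 CPM in the next highest, and miR-434-3p had 449 CPM in the same library, against 267 CPM. That library was the shallowest, with 47235 counts. miR-382 had 276 CPM in AOM-DSS normal library 6, against 199 CPM in the next. miR-410 had 284 CPM in APC normal library 1, against 166 CPM in the next. Each lay at the high end of a normal group.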

How the results depend on the processing

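The number of members lower in APC tumours was 8 with scaling to the mRNA probes, 8 with the authors' scaled values and 10 when only miRNAs above background were tested, which left 14 members, and it ran from 12 to 16 when single libraries were left out. In AOM-DSS tumours it was 9 after background subtraction, 4 with cartridge 3 as a term, 6 on the first 2 cartridges, and 11 to 14 without single libraries. Both cartridge settings rest on 2 AOM-DSS tumours. Members higher in tumours numbered 0 to 1 in either model without single libraries, 1 without APC tumour 3 in APC and without AOM-DSS normal 5 or AOM-DSS tumour 1 in AOM-DSS. The difference between models called 4 members after background subtraction and 0 to 1 without single libraries, 1 without APC tumour 5. Between normal tissues 1 member was called with scaling to the 100 highest miRNAs and 1 on the first 2 cartridges, and 0 with scaling to the mRNA probes, background subtraction or limma-voom (0 to 3 without single libraries). Between tumours 3 were called with the mRNA probes, all lower, against 11.2% of all tested miRNAs lower. The count between tumours was 4 among miRNAs above background, 3 with cartridge 3 as a term, 0 on the first 2 cartridges and 5 to 8 without single libraries. With background at the mean plus 3 SD, 6 members were above it in APC normal tissue, 3 in AOM-DSS tumours and 8 in AOM-DSS normal tissue. The cause of these changes was not tested. A replicate block, which takes equal numbers within a model as pairs, gave 16 members lower in APC tumours, 12 in AOM-DSS tumours and 0 for the difference.

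Among named members, miR-127, miR-136, miR-376b, miR-410 and miR-495 kept their call in APC tumours under all 38 settings run, and miR-127, miR-136, miR-154 and miR-369-3p in AOM-DSS tumours. The miR-369-3p call in APC and the miR-381 call in AOM-DSS were lost under 15 and 11 settings. The sign turned for 2 uncalled values. miR-381 in APC became 0.080 with the authors' values. miR-329 in AOM-DSS became 0.0032 among miRNAs above background, 0.19 with cartridge 3 as a term, 0.16 on the first 2 cartridges, -0.18 to 0.078 when single libraries were left out (above 0 without AOM-DSS normal 6 or 7 or AOM-DSS tumour 3 or 4), and 0.031 without both shallowest libraries. The members' median log2 fold change turned to 0.17 in APC with the authors' values, where that of all miRNAs was 0.26, and to 0.01 with the 100 highest miRNAs. In AOM-DSS it was -0.52 with the mRNA probes, where that of all miRNAs was -0.40. In that setting 26.2% of the members were lower in AOM-DSS tumours, against 19.7% of all tested miRNAs. Low counts limit most members, since 32 of 61 were never above background.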
